A study of Arabidopsis thaliana with 9 samples.

Results

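The prp39a mutant of Arabidopsis thaliana was compared directly with the smd1b mutant, gene by gene and isoform by isoform, in whole seedlings of 14 days grown on 1/2MS medium. The comparison used 6 of the 9 libraries, the 3 columns named for prp39a and the 3 named for smd1b, and the 3 wild-type libraries are given beside them for orientation. The groups were prp39a-3 (SAIL_1249A03), smd1b-3 and the accession Col-0 as wild type, each with 3 independent biological replicates per the labels, so p-values measure the spread between such replicates. Each mutant was represented by 1 allele, and whole seedlings mix many cell types, so fewer cells of a type and less RNA per cell cannot be told apart. The study's title concerns a joint action of PRP39 and SmD1 in transgene silencing, and these libraries measured the polyadenylated endogenous RNA. Levels are in TPM, a unit that corrects for transcript length and adds up to the same total in every library, and the number of reads behind them is unknown.

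The spliceosome removes introns in steps, and the U1 small nuclear ribonucleoprotein (snRNP) is the particle that first pairs with the 5′ splice site. PRP39 proteins belong to the U1 snRNP, whereas SmD1 is a member of the ring of Sm proteins that the U1, U2, U4 and U5 snRNPs have in common. Plants carry more than one copy of many of these genes, and PRP39B and SMD1A are the paralogs of the mutated genes.

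Seedling libraries held leaf, photosynthetic and root transcripts. Genes were tested where their 9 libraries averaged 1 TPM or more. Of 8 root markers 6 passed this filter, and of 6 floral organ markers only SEP3 did, at 3.56 to 6.01 TPM in prp39a and 3.81 to 6.14 TPM in smd1b. The prp39a replicate 2 library stood apart in its seed transcripts. The summed TPM of 9 seed storage protein and oleosin genes, a list made after values were seen, was 0.595, 60.6 and 0.949 in prp39a, 4.44, 1.12 and 4.14 in smd1b and 0.537, 1.22 and 0.230 in wild type. In that library the storage proteins CRU3, SESA3 and CRU1 had 16.2, 15.8 and 9.36 TPM and the oil body protein OLEO1 had 8.17 TPM. The same library lay at 38.6 on the second principal component (25.8% of the variance), where the other 8 lay between −28.9 and 21.9. The first component (34.1%) put the genotypes in order, with prp39a at −28.3 to −21.6, smd1b at 30.2 to 32.6 and wild type at −8.49 to −4.90. The part of the seed transcripts in the results below was not tested. For the genes and isoforms chosen by the naming rules given under processing, calls that are lost without prp39a replicate 2 are marked. Other genes and isoforms, such as list members given only by name, were not marked in this way.

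Each mutated gene was low in its own line only. PRP39A (AT1G04080) had 5.44, 5.48 and 5.58 TPM in prp39a, against 53.6, 51.3 and 53.0 TPM in smd1b and 51.2 ± 3.46 TPM in wild type (SD, n = 3). SMD1B (AT4G02840) had 49.97, 59.2 and 53.4 TPM in prp39a, against 0, 0.138 and 0 TPM in smd1b and 52.3 ± 1.81 TPM in wild type. The groups did not overlap for either gene. The remaining PRP39A transcript was of other isoforms: isoforms c2 and s3 held 42.8% and 52.0% of it in prp39a, against 1.11% and 7.86% in smd1b, while isoform P1 held 4.89% in prp39a and 66.3% in smd1b. Neither paralog passed the test between the mutants. PRP39B had 8.01 ± 0.660 TPM in prp39a and 8.71 ± 0.368 TPM in smd1b (limma adjusted p = 0.769), and SMD1A had 16.9 ± 3.57 TPM in prp39a and 21.4 ± 2.35 TPM in smd1b (adjusted p = 0.269).

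Neighbouring genes were together at or near 0 TPM in smd1b at 2 places. On chromosome 4, SMD1B and its neighbours AT4G02800, AT4G02820, AT4G02830 and AT4G02850 stood in smd1b at 0.0805% to 1.23% of their prp39a means, while EMB3129 on one side of the block stood at 114% and AT4G02860 on the other at 111%. On chromosome 3, the F-box gene AT3G55900 had 6.03, 7.26 and 7.34 TPM in prp39a and was listed at 0 in all 3 smd1b libraries. AT3G55910, which encodes an ADP-ribosylation factor GTPase-activating protein, had 5.14, 7.26 and 7.06 TPM in prp39a and was also listed at 0 in smd1b. The next gene, AT3G55920, encodes a cyclophilin-like peptidyl-prolyl isomerase and had 25.5 TPM in prp39a and 9.02 TPM in smd1b. In the other direction, the microRNA precursor MIR843 and its neighbour AT3G48058 were listed at 0 in all 3 prp39a libraries and averaged 1.63 and 1.25 TPM in smd1b. In wild type MIR843 was also listed at 0 and AT3G48058 averaged 0.134 TPM, so prp39a was near wild type at this place. The seed albumins SESA3 and SESA4 formed a further run that rested on prp39a replicate 2.

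Over all genes, the mutants differed in many transcripts by small amounts. Of 20585 genes tested, 4239 differed at a Benjamini-Hochberg adjusted p under 0.05 (20.6%) in a limma fit of log2(TPM + 0.5), with 2193 higher in prp39a (10.7%) and 2046 lower (9.94%). The median size of these changes was 0.44 on the log2 scale, and 2955 of the genes (69.7%) changed by less than 1.5-fold. At least 2-fold changes were found in 334 genes, 180 higher and 154 lower in prp39a. Each library had been centred by its median log ratio. After centring, the 3 prp39a libraries did not overlap the 3 smd1b libraries in 8099 genes (39.3%). With the TPM as deposited the median gene was 0.08 lower in prp39a on the log2 scale, and of 4336 genes called 1316 were higher and 3020 lower, so the near balance of directions holds only relative to the median gene. The number called was 2328 without prp39a replicate 1, 2720 without smd1b replicate 1 and 2244 without smd1b replicate 3.

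For the 334 genes that differed at least 2-fold, the wild-type mean lay between the means of the mutants in 255. It was nearer to prp39a in 222 and nearer to smd1b in 112. Among the 180 genes higher in prp39a, wild type was nearer to prp39a in 104 and nearer to smd1b in 76. Among the 154 lower in prp39a it was nearer to prp39a in 118 and nearer to smd1b in 36. These counts are a description of means, with no test.

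SMD1B itself had a log2 fold change of 6.74, and the runs of neighbouring genes near 0 in smd1b described above are not counted again here. Outside them, the largest rise in prp39a over smd1b was that of FLC (AT5G10140), the MADS-domain repressor of flowering that vernalization silences. FLC had 22.7, 32.0 and 21.8 TPM in prp39a, against 0.230, 0.512 and 0.258 TPM in smd1b and 7.65 ± 0.784 TPM in wild type. The mutants lay on opposite sides of wild type without overlap, and the log2 fold change between them was 5.05 ± 0.19 (SE, adjusted p = 1.76e-06). The uncharacterised gene AT3G29633 had 19.8, 20.5 and 23.9 TPM in prp39a, against 0.325, 0.383 and 0.394 TPM in smd1b and 0.302 TPM in wild type. Here smd1b was near wild type and prp39a was high (log2 fold change 4.74 ± 0.11, adjusted p = 6.08e-08). QQS, a gene of starch and nitrogen allocation that is found only in Arabidopsis and whose methylation varies between plants, had 98.4, 91.1 and 87.9 TPM in prp39a and 6.03, 9.91 and 8.98 TPM in smd1b, with 18 ± 0.963 TPM in wild type (log2 fold change 3.51 ± 0.17, adjusted p = 7.66e-06).

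Regulators and a receptor kinase followed. AT4G05170, a basic helix-loop-helix protein, averaged 15.0 TPM in prp39a and 1.73 TPM in smd1b (log2 fold change 2.90). ARF20, an auxin response factor with near-identical copies whose reads the estimates could divide, averaged 10.5 TPM in prp39a and 1.46 TPM in smd1b (2.58). SRF4, a receptor-like kinase of the STRUBBELIG family, averaged 15.4 TPM in prp39a and 2.48 TPM in smd1b (2.50). In all 3 genes wild type was near smd1b, at 1.84, 1.81 and 4.23 TPM. The noncoding RNA AT1G25175 averaged 287 ± 38.5 TPM in prp39a, 69.3 ± 44.6 TPM in smd1b and 155 TPM in wild type, a pattern with wild type in the middle (log2 fold change 2.42 ± 0.52, adjusted p = 0.0135). The remaining rises of the 12 largest outside the runs had log2 fold changes of 2.00 to 2.42 and were AT5G04120 (a phosphoglycerate mutase family protein), AT3G27831 (a gamma-thionin, a small secreted peptide), AT5G35940 (a mannose-binding lectin), AT1G03165 and AT5G44063. The call of AT3G27831 was lost without any 1 prp39a library or without smd1b replicate 1 or 3 (adjusted p 0.0520 to 0.0912).

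**Figure D1:**
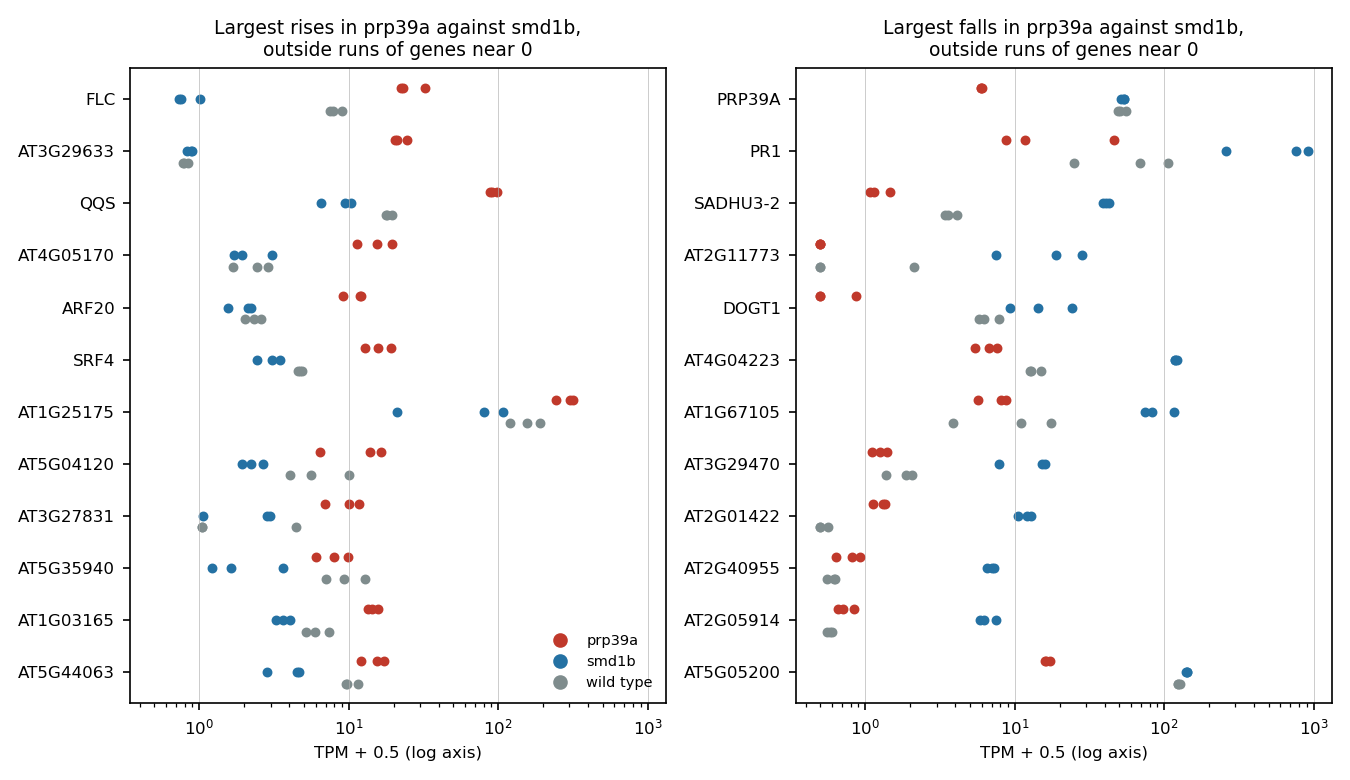
TPM + 0.5 on a log axis in each library of prp39a (red), smd1b (blue) and wild type (grey), for the 12 genes with the largest rises (left) and the 12 with the largest falls (right) in prp39a against smd1b, outside the runs of neighbouring genes near 0 (SMD1B among them); each point is 1 library. FLC lies at 21.8 to 32.0 TPM in prp39a and 0.230 to 0.512 TPM in smd1b, on either side of wild type, while AT5G05200 is low in prp39a and near 140 TPM in smd1b, close to wild type.

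The largest falls in prp39a, beside PRP39A itself, were mostly of transcripts that were high in smd1b and low in wild type. PR1, a secreted defence protein that salicylic acid induces, had 8.19, 46.0 and 11.3 TPM in prp39a, against 258, 912 and 765 TPM in smd1b and 24.3, 68.9 and 106 TPM in wild type (log2 fold change −4.99 ± 0.77, adjusted p = 0.00397). SADHU3-2, a retroelement-derived pseudogene, had 0.574, 0.969 and 0.645 TPM in prp39a, against 42.6, 40.4 and 38.5 TPM in smd1b and 3.21 TPM in wild type. The replicates of SADHU3-2 were close together in each mutant (log2 fold change −4.98 ± 0.14, adjusted p = 1.80e-07). AT2G11773 was listed at 0 in all 3 prp39a libraries and had 6.96, 18.3 and 27.9 TPM in smd1b. DOGT1, a glucosyltransferase that modifies brassinosteroids and the toxin deoxynivalenol and lies among similar copies, had 0 or nearly 0 TPM in prp39a replicates 1 and 3 and 0.369 TPM in prp39a replicate 2, against 8.76, 13.8 and 23.53 TPM in smd1b, with 6.09 TPM in wild type.

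Noncoding RNAs made up 4 of the 12 largest falls. AT4G04223 averaged 6.11 ± 1.09 TPM in prp39a, 119 ± 1.80 TPM in smd1b and 13.0 TPM in wild type (log2 fold change −4.10 ± 0.13, adjusted p = 4.72e-07). AT1G67105 averaged 7.03 TPM in prp39a and 90.4 TPM in smd1b (−3.51), AT2G01422 averaged 0.768 TPM in prp39a and 11.3 TPM in smd1b (−3.14), and AT2G05914 averaged 0.238 TPM in prp39a and 6.02 TPM in smd1b (−3.06). The uncharacterised genes AT3G29470 and AT2G40955 had fold changes of −3.23 and −3.06. AT5G05200 went the other way relative to wild type. This gene, of the protein kinase superfamily, had 16.6, 15.6 and 15.4 TPM in prp39a, against 141, 142 and 140 TPM in smd1b and 125 TPM in wild type (log2 fold change −3.02 ± 0.06, adjusted p = 2.29e-08).

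The mix of isoforms within genes also differed between the mutants. Of 22040 isoforms that held a mean share of 0.05 to 0.95 of their gene's TPM, 3024 differed (13.7%), 1550 with a higher share in prp39a (7.03%) and 1474 with a lower share (6.69%). They lay in 1860 of 8602 genes (21.6%), and 967 of those genes had isoforms called in both directions. The median difference of the called isoforms was 13.2 percentage points, and 2005 isoforms differed by more than 10 points, 778 by more than 20 points (in 519 genes) and 28 by more than 50 points. The number called was 1911 without prp39a replicate 1 and 1999 without prp39a replicate 2. Of the 1860 genes, 621 (33.4%) also differed in their total TPM, against 22.8% of the 8602 genes, and 1239 did not pass that test. Isoforms of 1 gene are measured against each other, so a fall of 1 raises the others, and reads shared by similar isoforms are divided by estimation.

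At the level of isoforms, wild type stood nearer to smd1b. Of the 778 isoforms that differed by more than 20 points, the wild-type mean share was nearer to smd1b in 565 and nearer to prp39a in 213, and it lay between the mutants in 534. Of the 28 that differed by more than 50 points it was nearer to smd1b in 18. The isoform that led in wild type had a higher share in prp39a in 515 of 8602 genes and a lower share in 679, whereas the other 13438 tested isoforms had a higher share in 1035 and a lower share in 795. In 135 of 5873 genes of at least 5 TPM a different isoform led in each mutant, and for 97 of these both leading isoforms passed the test. Wild type had 1 of the same leading isoforms in 101 of these genes, that of smd1b in 78 and that of prp39a in 23.

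Switches of the leading isoform included a transporter, a chromatin remodeller and a kinase. KEA6, a potassium efflux antiporter, had isoform ID52 at 52.8% in prp39a and 5.03% in smd1b, with 6.96% in wild type. INO80, the ATPase of a chromatin-remodelling complex, had isoform s1 at 58.0% in prp39a and 19.3% in smd1b, with 41.7% in wild type. MPK18, a mitogen-activated protein kinase, had isoform P1 at 66.05% in prp39a and 25.9% in smd1b, with 36.0% in wild type.

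The isoform with the smallest adjusted p was of AT3G55920, the gene beside the pair listed at 0 on chromosome 3. Isoform ID17 held 0, 0 and 0.379% of its TPM in prp39a, 100% in every smd1b library and 0 in wild type, while isoform P1 held 69.7% in prp39a and 67.8% in wild type and was listed at 0 in smd1b. Outside that locus RUS3, of the root UVB sensitive protein family, had the same next adjusted p as isoform c2 of PRP39A and isoform P1 of AT1G76520. Isoform P1 of RUS3 held 0, 0 and 1.13% in prp39a, against 67.4%, 64.3% and 69.3% in smd1b and 60.04 ± 6.14% in wild type (log2 ratio −5.58, adjusted p = 6.34e-06). Isoform P3 of RUS3 held 42.6 ± 3.78% in prp39a, 11.9 ± 2.85% in smd1b and 9.39% in wild type. The total of RUS3 averaged 13.1 TPM in prp39a and 12.4 TPM in smd1b.

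Several isoforms were listed at or near 0 in prp39a and present in smd1b and wild type. These were isoform P1 of AT1G76520 (13.7 ± 1.33% in smd1b and 18.7% in wild type), isoform P1 of the carboxypeptidase-like gene SCPL13 (7.85 ± 1.25% in smd1b and 9.20% in wild type), isoform P1 of the sucrose-phosphatase SPP2 (22.7 ± 2.37% in smd1b and 15.5% in wild type) and isoform c2 of the clock gene PRR7 (6.998 ± 0.554% in smd1b and 8.90% in wild type). One went the other way. Isoform P1 of AT4G10970 held 28.7%, 37.9% and 34.9% in prp39a, against 0, 0 and 0.000801% in smd1b and 17.1 ± 4.77% in wild type (log2 ratio 5.23 ± 0.27, adjusted p = 2.04e-05). The difference of its isoform P2 was lost without any 1 of the 9 libraries (adjusted p 0.0546 to 0.140).

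GATA26, a zinc-finger transcription factor, changed its leading isoform. Isoform P1 held 10.9%, 4.48% and 8.07% in prp39a, against 72.0%, 68.0% and 67.2% in smd1b and 61.1 ± 3.33% in wild type (log2 ratio −4.22, adjusted p = 5.37e-05), and isoform P3 held 89.5 ± 2.34% in prp39a and 24.2 ± 9.83% in smd1b. The disease resistance gene AT5G66900 had isoform P2 at 9.37% in prp39a, 59.8% in smd1b and 60.4% in wild type. AT5G40500 had isoform P2 at 5.196% in prp39a, 45.3% in smd1b and 42.6% in wild type. For isoform P2 of both genes smd1b was near wild type. Isoform P1 of AT5G40500 held 60.7% in prp39a, 14.6% in smd1b and 32.5% in wild type, which lay between the mutants. In AT2G05518 wild type also lay between the mutants, with isoform ID1 at 95.9% in prp39a, 41.4% in smd1b and 52.4% in wild type.

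**Figure D2:**
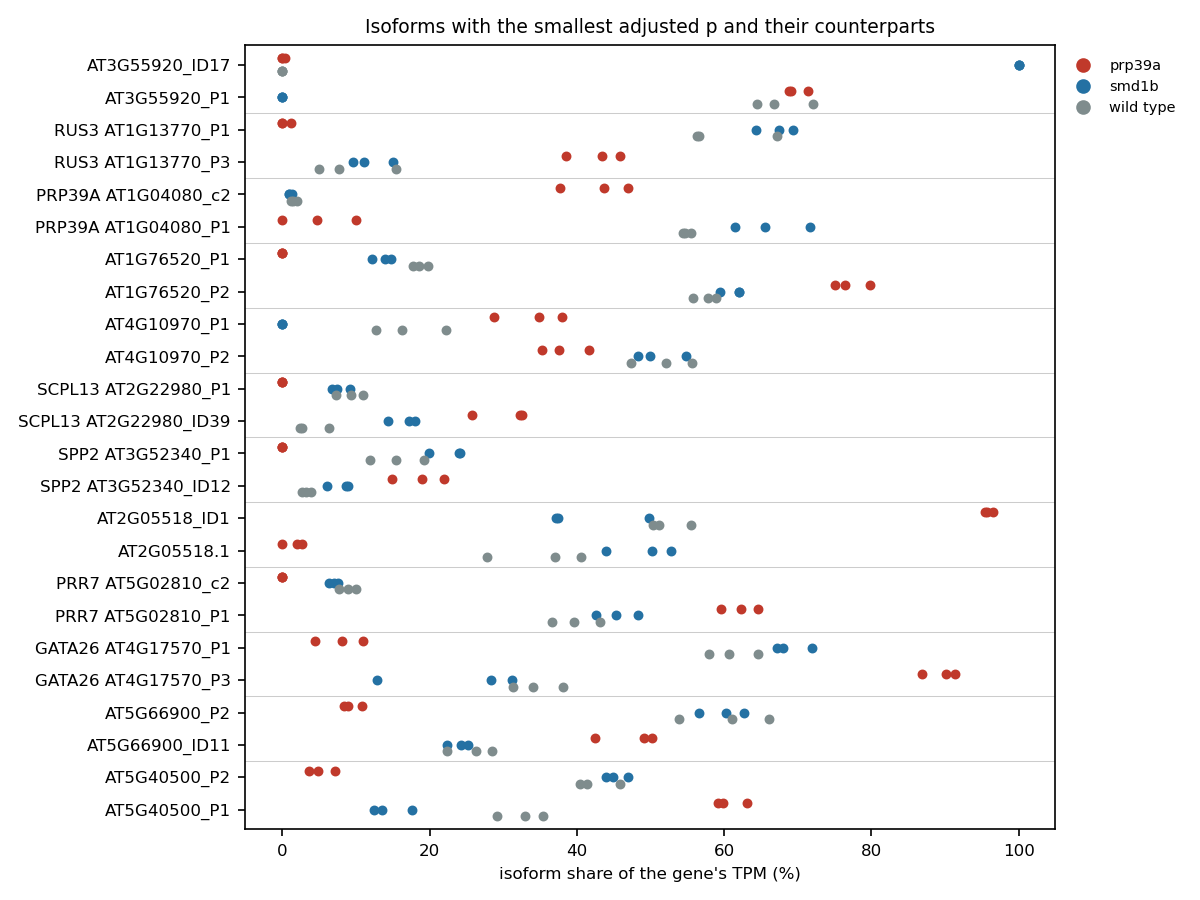
Share of the gene's TPM held by the 12 isoforms with the smallest adjusted p and by 1 further isoform of each of their genes, in percent; each point is 1 library of prp39a (red), smd1b (blue) or wild type (grey). For most pairs smd1b lies near wild type and prp39a apart, as for GATA26 isoform P1 at 4.48% to 10.9% in prp39a and 67.2% to 72.0% in smd1b. AT3G55920 sets smd1b apart, and for AT4G10970 isoform P1 wild type lies between the mutants.

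Exon structures were read for isoforms whose dotted names are also in the RefSeq annotation of TAIR10.1, on the assumption that the numbering is the same; structures of the other isoforms were not analysed here. In 20 genes, dotted isoforms were called in both directions. The isoform with the higher share in prp39a had an intron spliced that the other kept in 6 genes, and kept an intron that the other had spliced in 7. It skipped an exon in 2 genes and included one that the other skipped in 1. A different 3′ splice site was used in 3 genes and a different 5′ splice site in 2, and 1 gene held 2 of these events.

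VAB2 (AT4G38510), a B subunit of the vacuolar proton pump, had a skipped exon. Isoform AT4G38510.3 includes an exon of 73 bases in the 5′ UTR (chr4:18014903-18014975, minus strand, TAIR10.1), and AT4G38510.2 skips it. The sites around it are shown because the choice between them separates the isoforms; each gives 10 bases on either side of the exon boundary, with the first or last 2 intron bases in capitals.
Donor used by both isoforms (chr4:18015056-18015075): gaagaaagagGTacgtacac
Acceptor of the exon (chr4:18014966-18014985): ttgttgttAGgttttatgct
Donor of the exon (chr4:18014893-18014912): ctaaaattggGTaaaatgga
Acceptor used by both isoforms (chr4:18014787-18014806): atttctgaAGatctaaaatg

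The isoform that skips this exon, AT4G38510.2, held 86.2%, 88.5% and 82.3% of VAB2 in prp39a, against 56.0%, 52.7% and 51.5% in smd1b and 35.5 ± 3.04% in wild type (log2 ratio 2.37 ± 0.22, adjusted p = 0.000391). The isoform that includes it held 2.67%, 4.28% and 4.60% in prp39a, against 32.7%, 34.4% and 35.6% in smd1b and 39.3 ± 3.95% in wild type (log2 ratio −3.58 ± 0.24, adjusted p = 7.89e-05). The groups did not overlap for either isoform, and the share of AT4G38510.3 was low in prp39a alone. A further isoform, ID3, held 9.50% in prp39a, 8.31% in smd1b and 22.8% in wild type. Its structure was not read, so inclusion of the exon over the whole gene is not known.

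AT1G05380, a PHD-finger protein gene, differed in the 5′ splice site used. The donors of its 2 annotated isoforms lie 21 bases apart in the 5′ UTR on the plus strand of chromosome 1, and are printed with the first 2 intron bases in capitals.
Donor of AT1G05380.2 (chr1:1577139-1577158): atcgatttagGTatttcgtt
Donor of AT1G05380.1 (chr1:1577118-1577137): tgcttatcgaGTaaaggatt

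The isoform with the downstream donor, AT1G05380.2, held 89.3 ± 2.28% in prp39a, 73.0 ± 5.89% in smd1b and 85.3 ± 3.68% in wild type (adjusted p = 0.0106). The isoform with the upstream donor held 2.39%, 4.85% and 2.05% in prp39a, against 21.4%, 15.8% and 17.7% in smd1b and 12.9 ± 2.64% in wild type (log2 ratio −2.01 ± 0.28, adjusted p = 0.00251). The upstream donor thus had the lower share in every prp39a library than in any smd1b library, and wild type lay between.

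RABG3B, a RAB GTPase of vacuolar traffic chosen after its values were seen, had isoform AT1G22740.1 at 1.33%, 1.51% and 4.95% in prp39a, against 55.6%, 50.5% and 57.0% in smd1b and 58.9 ± 2.87% in wild type (log2 ratio −5.44 ± 0.41, adjusted p = 0.000113). Isoforms ID1 and ID6 held 29.1% and 30.4% in prp39a and 5.64% and 12.5% in smd1b.

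Among the 12 U1 snRNP proteins, 1 was higher in prp39a (U1-70K), 2 were lower (PRP39A and RBM25), and the median was −0.07 beside 0.01 for all genes, of which 10.7% were higher and 9.94% lower. RBM25, an RNA-binding partner of the U1 snRNP, averaged 33.6 ± 4.90 TPM in prp39a, 61.2 ± 2.59 TPM in smd1b and 45.4 TPM in wild type (log2 fold change −0.78, adjusted p = 0.00162). The mix of isoforms differed in 6 of the 10 U1 genes tested for it: U1-70K, LUC7A, LUC7B, PRP39A, PRP40B and RBM25. Over all genes so tested the share was 21.6%. PRP39A is the gene mutated in prp39a, so its calls in these counts say nothing about the other U1 proteins. Of the 13 Sm core proteins only SMD1B itself passed the gene test. SMBB, which encodes a subunit of the Sm ring, had isoform AT4G20440.4 at 30.3% in prp39a, 52.8% in smd1b and 37.1% in wild type. That call was lost without prp39a replicate 1 or smd1b replicate 1 or 3 (adjusted p 0.0671 to 0.0706), and that of isoform P5 of the same gene without any 1 library other than smd1b replicate 1 (0.0502 to 0.0965).

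U1-70K (AT3G50670), the protein that binds the first stem-loop of U1 RNA, differed in the share of an isoform that keeps an intron. The intron has 909 bases between the start and stop codons of isoform AT3G50670.1 and is kept in AT3G50670.2. Its ends on the minus strand of chromosome 3 are shown with the first and the last 2 intron bases in capitals.
U1-70K donor (chr3:18828339-18828358): aattaaacggGTaggttatt
U1-70K acceptor (chr3:18827430-18827449): aacttctcAGgttcatttgg

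The intron-keeping isoform AT3G50670.2 held 23.4%, 21.96% and 21.95% of U1-70K in prp39a, against 5.97%, 8.84% and 5.87% in smd1b and 14.6 ± 1.04% in wild type (log2 ratio 1.84 ± 0.21, adjusted p = 0.00101). The mutants lay on opposite sides of wild type without overlap. Isoform P1 held 72.9 ± 1.75% in prp39a, 86.4 ± 3.11% in smd1b and 58.5 ± 0.420% in wild type, with both mutant means above wild type. Isoform s2 had both mutant means below wild type, at 4.45% in prp39a, 6.69% in smd1b and 25.4% in wild type. The structures of isoforms P1 and s2 were not read, so retention of the intron over the whole gene is not known. The total of U1-70K was 61.6 ± 3.22 TPM in prp39a, 49.2 ± 2.22 TPM in smd1b and 63.1 TPM in wild type (log2 fold change 0.41, adjusted p = 0.00209).

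SR proteins, the serine- and arginine-rich factors that help define exons, were higher in prp39a where they differed. Of 20 tested, 7 rose (RS31A, RS31, SR34, RS2Z32, RS40, SR45A and RSZ22A) and none fell, and 17 had a fold change above 0, with a median of 0.15. Without centring 6 rose and 1 fell. The shares of all genes, with centring, were 10.7% higher and 9.94% lower. RS31 averaged 64.7 ± 1.505 TPM in prp39a, 45.7 ± 3.44 TPM in smd1b and 46.5 TPM in wild type (log2 fold change 0.59, adjusted p = 0.00203). RS40 averaged 128 ± 6.28 TPM in prp39a, 101 ± 0.828 TPM in smd1b and 102 TPM in wild type (0.42). RS31A and SR34 had log2 fold changes of 0.53 and 0.36.

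The isoforms of 8 of 19 SR genes differed: SR30, SR34A, SR34B, RS31, RS31A, RS40, RS41 and SR45. The share of all genes so tested was 21.6%. SR30 (AT1G09140) differed in the share of isoform P1, at 5.39%, 7.23% and 5.56% in prp39a, against 46.6%, 37.5% and 36.1% in smd1b and 24.6 ± 1.48% in wild type (log2 ratio −3.25 ± 0.23, adjusted p = 8.92e-05). Its isoform P2 held 84.4 ± 1.06% in prp39a, 44.0 ± 6.31% in smd1b and 67.1 ± 2.58% in wild type. Wild type thus lay between the mutants for both. RS31 had isoform ID2 at 58.3 ± 2.71% in prp39a, 30.0 ± 5.39% in smd1b and 37.6 ± 3.10% in wild type (adjusted p = 0.00230).

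**Figure D3:**
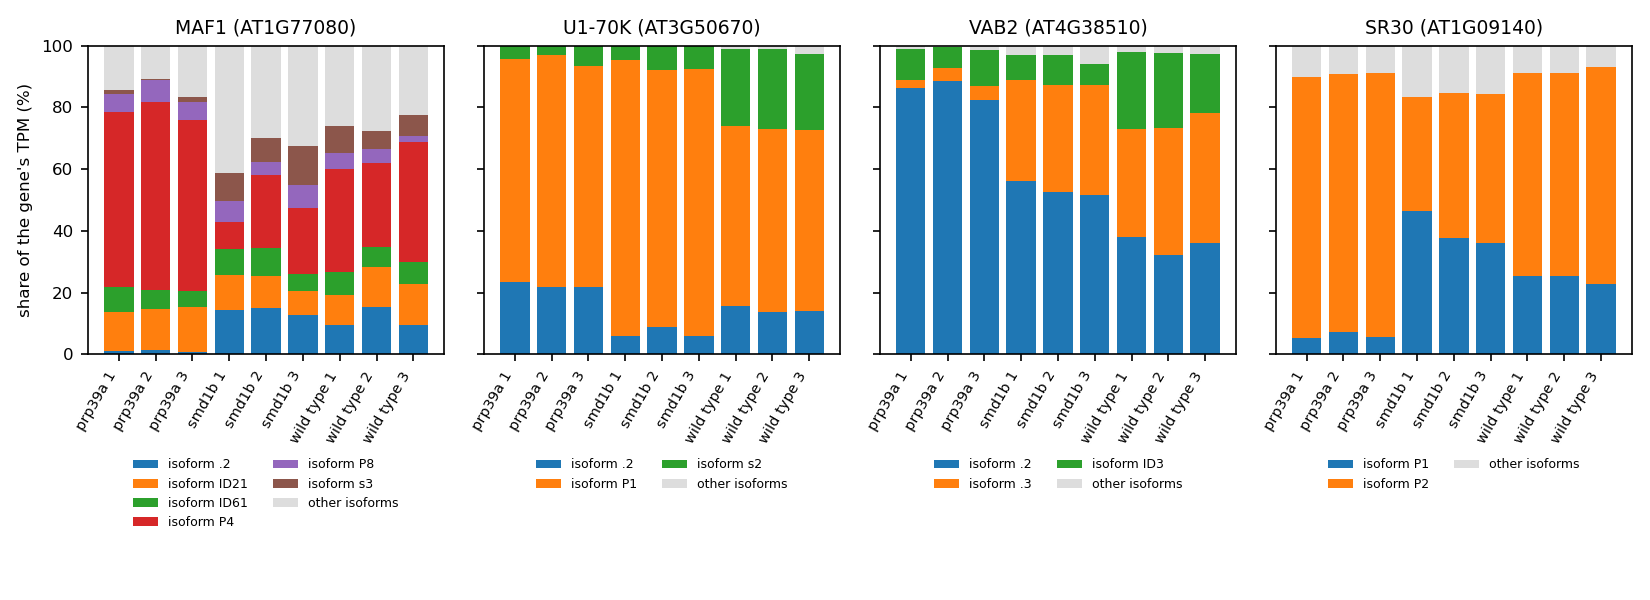
Stacked shares of the gene's TPM in percent held by the isoforms of MAF1, U1-70K, VAB2 and SR30 in each library, with prp39a at the left, smd1b in the middle and wild type at the right; grey is the sum of the isoforms not drawn. Isoform AT3G50670.2 of U1-70K stands at 21.95% to 23.4% in prp39a and 5.87% to 8.84% in smd1b, and isoform AT4G38510.3 of VAB2 nearly disappears in prp39a.

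The FLC clade of floral repressors held 3 genes higher in prp39a (FLC, MAF1 and MAF3) and 1 lower (MAF5) among the 7 tested. Among all genes 10.7% were higher and 9.94% lower. The counts of the clade were the same when any 1 library was left out, with 2 lower without centring. MAF1, a temperature-responsive relative of FLC also called FLM, had 74.5, 75.8 and 68.7 TPM in prp39a, against 34.4, 43.6 and 46.6 TPM in smd1b and 43.7 ± 2.76 TPM in wild type (log2 fold change 0.90 ± 0.13, adjusted p = 0.00267). MAF3 averaged 35.4 ± 1.78 TPM in prp39a, 22.01 ± 1.24 TPM in smd1b and 23.4 TPM in wild type (0.76, adjusted p = 0.000599). For both genes smd1b was close to wild type. MAF5 averaged 0.724 ± 0.0696 TPM in prp39a, 2.39 ± 0.450 TPM in smd1b and 0.969 TPM in wild type (−1.14, adjusted p = 0.00220).

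The isoforms of MAF1 use mutually exclusive internal exons. AT1G77080.2 carries an exon of 46 coding bases on the plus strand of chromosome 1, and AT1G77080.4 and AT1G77080.5 carry one of 58 coding bases upstream of it. Both are printed because they distinguish the splice forms, with the exon in capitals between 10 bases of each flanking intron.
MAF1 exon of AT1G77080.5 (exon at chr1:28958334-28958391): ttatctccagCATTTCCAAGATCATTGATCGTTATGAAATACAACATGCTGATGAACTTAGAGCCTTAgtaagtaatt
MAF1 exon of AT1G77080.2 (exon at chr1:28958456-28958501): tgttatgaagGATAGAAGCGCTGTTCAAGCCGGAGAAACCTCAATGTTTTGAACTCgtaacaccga

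The isoform with the 46-base exon, AT1G77080.2, held 1.07%, 1.29% and 0.851% of MAF1 in prp39a, against 14.4%, 14.9% and 12.8% in smd1b and 11.5 ± 3.24% in wild type (log2 ratio −3.32 ± 0.24, adjusted p = 0.000103). Isoform P4, whose structure was not read, held 57.5 ± 2.86% in prp39a, 17.99 ± 7.93% in smd1b and 33.2 ± 5.77% in wild type (adjusted p = 0.00291). Isoform s3 held 1.08% in prp39a, 9.96% in smd1b and 7.25% in wild type. FLC isoforms also passed the test on log ratios, but with FLC at 0.333 TPM in smd1b they did not on the share itself (adjusted p 0.178 and 0.240).

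Of 20 tested regulators of FLC, 1 was higher in prp39a (ARP6) and 5 lower (FLK, PIE1, ELF7, VRN5 and FLD). The shares of all genes were 10.7% higher and 9.94% lower. A fold change below 0 was found in 17 of the 20 regulators, with a median of −0.13. FLK, an RNA-binding protein of the autonomous pathway that represses FLC, averaged 28.0 ± 0.995 TPM in prp39a, 37.7 ± 1.44 TPM in smd1b and 33.7 TPM in wild type (log2 fold change −0.33, adjusted p = 0.00747). The number called lower was 1 to 5 when 1 library was left out, lowest without smd1b replicate 2, 2 without smd1b replicate 1 or 3 and 3 without prp39a replicate 1 or 2 or wild-type replicate 2. It was 2 with the replicate block. The ARP6 call was lost without smd1b replicate 3 (adjusted p = 0.0505), that of PIE1 without smd1b replicate 1 or 2 (0.0581 and 0.0513), that of ELF7 without prp39a replicate 2 or smd1b replicate 2 or 3 (0.0537 to 0.0606), and that of VRN5 without any 1 library other than prp39a replicate 3 and wild-type replicate 3 (0.0528 to 0.121).

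Isoforms differed in 5 of 13 FLC regulators, FPA, FLK, VIP5, SUF4 and VRN1, beside 21.6% of all genes so tested. FPA, an RNA-binding protein that acts on polyadenylation at FLC, had isoform P1 at 5.23% in prp39a, 26.8% in smd1b and 22.6% in wild type (adjusted p = 0.00386). FLK had isoform P2 at 3.45 ± 0.638% in prp39a, 12.8 ± 0.960% in smd1b and 8.82% in wild type (adjusted p = 0.00220). SUF4, an activator of FLC, had isoform P1 at 30.1% in prp39a, 49.3% in smd1b and 42.6% in wild type (adjusted p = 0.0102). In all 3 the wild-type share was nearer to smd1b or between the mutants.

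Of 14 tested floral integrators and genes of the age pathway, 1 rose in prp39a (SPL3) and 1 fell (FD). Among all genes 10.7% rose and 9.94% fell. SPL3, a promoter of flowering that miR156 represses, averaged 37.1 ± 6.55 TPM in prp39a and 22.1 ± 4.43 TPM in smd1b. FD, the partner of the florigen FT, averaged 9.25 ± 0.165 TPM in prp39a and 12.4 ± 0.349 TPM in smd1b. The SPL3 call was lost without prp39a replicate 1 or 2 or smd1b replicate 1 or 3 (adjusted p 0.0539 to 0.0707), and that of FD without prp39a replicate 1 or 3 or any smd1b replicate (0.0544 to 0.0727). Isoforms differed in SOC1, SPL4, SNZ and TOE1 among 9 genes, beside 21.6% of all genes so tested. TOE1, an AP2-type repressor of flowering, had isoform P3 at 2.16% in prp39a, 9.01% in smd1b and 7.42% in wild type (adjusted p = 0.00314).

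Of 21 circadian clock genes, 4 rose in prp39a (RVE4, LNK2, CCA1 and ELF3) and 4 fell (GI, PRR7, PRR3 and LNK1). The shares of all genes were 10.7% and 9.94%. The evening-expressed gene GI, a regulator of flowering and the clock, averaged 31.8 TPM in prp39a, 49.0 TPM in smd1b and 34.6 TPM in wild type (log2 fold change −0.54, adjusted p = 0.00266). PRR7, a repressor of the morning genes, had 72.1, 53.3 and 67.8 TPM in prp39a, against 93.0, 94.3 and 100.1 TPM in smd1b and 78.8 TPM in wild type (−0.49). RVE4, an activator of evening genes, averaged 70.8 TPM in prp39a, 52.9 TPM in smd1b and 61.9 TPM in wild type (0.50). When 1 library was left out, 1 to 5 rose and 2 to 4 fell, with 1 rise without smd1b replicate 3 and 2 without prp39a replicate 1 or smd1b replicate 1 or 2, and 2 falls without prp39a replicate 1 or smd1b replicate 2 or 3. Without prp39a replicate 2, 3 rose and 3 fell. The calls of PRR3 and LNK2 were lost without smd1b replicate 2 or 3 (adjusted p 0.0607 to 0.0840), and that of PRR3 also without prp39a replicate 1 (0.0754).

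Isoforms of PRR7, PRR5, TOC1 and LUX differed among 15 clock genes, a share near the 21.6% of all genes. PRR7 had isoform P1 at 62.1% in prp39a, 45.4% in smd1b and 39.8% in wild type. The core clock repressor TOC1 had isoform ID2 at 10.3% in prp39a, 21.2% in smd1b and 10.3% in wild type. That call was lost without prp39a replicate 1 or smd1b replicate 1 (adjusted p = 0.0534 and 0.0541).

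The machinery of post-transcriptional silencing, which makes and uses small RNAs, had 1 gene higher in prp39a (RDR6) and none lower among 23 tested, beside 10.7% higher and 9.94% lower of all genes. Without centring 1 was higher and 3 were lower. Of the 23 genes, 8 had an unadjusted p under 0.05, and 19 had a fold change below 0 with a median of −0.16. RDR6, the RNA-dependent RNA polymerase that copies transgene and trans-acting siRNA transcripts, had 15.1, 15.8 and 14.3 TPM in prp39a, against 11.1, 12.6 and 13.0 TPM in smd1b and 14.2 TPM in wild type (log2 fold change 0.38, adjusted p = 0.0249). The groups did not overlap, as in 39.3% of all genes after centring. The RDR6 call was lost without prp39a replicate 1 or 2 (adjusted p = 0.0736 for either) or smd1b replicate 1 or 3 (0.0730 and 0.0514). Its partner SGS3 averaged 11.98 TPM in prp39a and 13.05 TPM in smd1b and did not pass the test (log2 fold change −0.03, adjusted p = 0.783). The slicer AGO1 had 79.4, 69.3 and 77.8 TPM in prp39a, against 92.8, 89.4 and 88.7 TPM in smd1b and 98.2 TPM in wild type (adjusted p = 0.102).

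Isoforms of 2 of 14 silencing genes differed, beside 21.6% of all genes so tested. SDE5, a putative RNA export factor needed for transgene silencing, had isoform ID6 listed at 0 in all 3 prp39a libraries. The isoform held 13.2 ± 4.65% in smd1b and 7.10% in wild type (adjusted p = 0.00482). It averaged only 0.909 TPM in smd1b, near the pseudocount of 0.5 TPM. DRB2, a double-stranded RNA-binding protein, had isoform P1 at 97.8% in prp39a, 91.8% in smd1b and 92.8% in wild type (adjusted p = 0.00596). Of 20 genes of RNA decay and quality control only XRN2, a nuclear 5′ to 3′ exonuclease, was lower in prp39a. Among all genes 9.94% were lower. XRN2 stood at 22.1 TPM in prp39a against 27.7 TPM in smd1b (log2 fold change −0.23, adjusted p = 0.0333). That call was lost without prp39a replicate 2 or 3, smd1b replicate 1 or 3 or wild-type replicate 3 (0.0522 to 0.0958).

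Of 23 genes of DNA methylation and transcriptional silencing, 2 were higher in prp39a (ROS1 and DRM2) and 2 lower (CLSY1 and SHH1). Both counts lay near the shares of all genes, 10.7% higher and 9.94% lower. ROS1, the DNA glycosylase that removes methylated cytosines, averaged 19.9 ± 2.62 TPM in prp39a, 11.2 ± 0.765 TPM in smd1b and 16.9 TPM in wild type (log2 fold change 0.88, adjusted p = 0.00114). DRM2, the methyltransferase of the RNA-directed pathway, averaged 12.9 TPM in prp39a, 10.4 TPM in smd1b and 10.4 TPM in wild type (0.39). CLSY1, which recruits RNA polymerase IV, averaged 2.56 TPM in prp39a, 3.94 TPM in smd1b and 4.36 TPM in wild type (−0.45). The SHH1 call was lost without any 1 library other than prp39a replicate 2 (adjusted p 0.0502 to 0.117). CMT2, a chromomethylase, had isoform c1 at 36.1% in prp39a, 14.4% in smd1b and 18.18% in wild type (adjusted p = 0.0110). Of 4 loci with heritable variation in methylation, QQS and SADHU1-1 were higher and SADHU3-2 lower in prp39a, and the SADHU1-1 call was lost without centring (adjusted p = 0.130) and without replicate 2 or 3 of any genotype (0.0563 to 0.123).

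Genes of the salicylic acid and immune response were lower in prp39a than in smd1b where they differed. Of 25 tested, 9 fell (WRKY18, FRK1, PR1, WRKY33, SAG101, WRKY53, PAD4, ICS1 and EDS5) and none rose. Among all genes 9.94% were lower and 10.7% higher. In this list 23 members had a fold change below 0, with a median of −0.36. That median was −0.22 without prp39a replicate 3, −0.56 without prp39a replicate 2 and −0.58 without smd1b replicate 1. The number that fell was 5 to 10 when 1 library was left out, with 5 without smd1b replicate 3 and 7 without prp39a replicate 2. The transcription factor WRKY18 had 18.9, 21.8 and 19.4 TPM in prp39a, against 52.7, 48.4 and 45.7 TPM in smd1b and 45.4 TPM in wild type (log2 fold change −1.18 ± 0.11, adjusted p = 0.000508). WRKY33, a regulator of camalexin synthesis, averaged 44.8 TPM in prp39a, 75.7 TPM in smd1b and 72.9 TPM in wild type (−0.67). For both WRKY genes prp39a was apart from wild type, while for PR1 smd1b was.

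The receptor kinase FRK1, a flagellin-induced gene, averaged 3.37 TPM in prp39a, 8.98 TPM in smd1b and 5.53 TPM in wild type (log2 fold change −1.21, adjusted p = 0.00319). SAG101, a partner of EDS1 in immune signalling, averaged 23.0 TPM in prp39a, 36.2 TPM in smd1b and 25.7 TPM in wild type (−0.55). PR2 and PR5, defence proteins that salicylic acid also induces, did not pass the test, with log2 fold changes of −0.31 and −0.10 (adjusted p = 0.670 and 0.859). In smd1b replicate 1 the list lay lower than in the other smd1b libraries. The median of its centred log2 values was −0.24, 0.01 and −0.47 in prp39a replicates 1 to 3, −0.02, 0.45 and 0.29 in smd1b and −0.29, −0.02 and 0.35 in wild type.

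Of 11 jasmonate genes, 1 was higher in prp39a (JAZ10) and 2 lower (AOC1 and LOX2), beside 10.7% and 9.94% of all genes. LOX2, the chloroplast lipoxygenase of jasmonate synthesis, averaged 201 ± 40.5 TPM in prp39a, 427 ± 89.4 TPM in smd1b and 223 TPM in wild type (log2 fold change −0.995, adjusted p = 0.00772). AOC1, an allene oxide cyclase of the same pathway, averaged 106 TPM in prp39a, 167 TPM in smd1b and 100.2 TPM in wild type (−0.56). In both genes prp39a was near wild type. Of 7 heat shock genes only the chaperone HSP90.1 differed, at 3.91 TPM in prp39a, 6.39 TPM in smd1b and 6.21 TPM in wild type (−0.56).

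Genes of the cold, drought and abscisic acid response were higher in prp39a in mean level. All 15 tested members had a fold change above 0 (0.27 to 2.13, median 1.05), and 3 passed the test: LTI30, LEA4-5 and COR15B. Among all genes 10.7% were called higher in prp39a. The dehydrin LTI30 had 170, 189 and 142 TPM in prp39a, against 65.8, 99.3 and 92.9 TPM in smd1b and 120 TPM in wild type (log2 fold change 1.05, adjusted p = 0.0181). COR15B, a chloroplast protein that protects membranes in frost, had 753, 844 and 544 TPM in prp39a, against 151, 441 and 305 TPM in smd1b and 241, 236 and 507 TPM in wild type (1.45, adjusted p = 0.0445). LEA4-5, a protein of late embryogenesis and drought, had 3.27, 8.72 and 4.22 TPM in prp39a, against 1.09, 2.48 and 1.92 TPM in smd1b (1.37, adjusted p = 0.0323).

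Each of these calls was lost when any 1 of several libraries was left out. All 3 were lost without prp39a replicate 2, the library with the seed transcripts (adjusted p = 0.0561 for LTI30, 0.0686 for LEA4-5 and 0.118 for COR15B), and without smd1b replicate 1 (0.0553, 0.0964 and 0.114), and none of the 15 then passed. LTI30 and COR15B were also lost without prp39a replicate 1 (0.0579 and 0.115), and LEA4-5 and COR15B without smd1b replicate 3 (0.0767 and 0.0926). COR15B was further lost without wild-type replicate 1 or 2 (0.0570 and 0.0551) and with the replicate block (0.0628). Without smd1b replicate 2, 7 of the 15 rose. The median of the list's centred log2 values was 0.68, 0.95 and 0.24 in prp39a replicates 1 to 3, −0.96, 0.19 and −0.26 in smd1b, and −0.59, −0.61 and 0.39 in wild type, so that smd1b replicate 2 lay close to prp39a replicate 3 and wild type spanned both. P5CS1, the enzyme of proline synthesis, differed in its isoform ID2, at 13.0 ± 3.39% in prp39a, 1.98 ± 0.507% in smd1b and 1.32% in wild type (adjusted p = 0.00246).

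**Figure D4:**
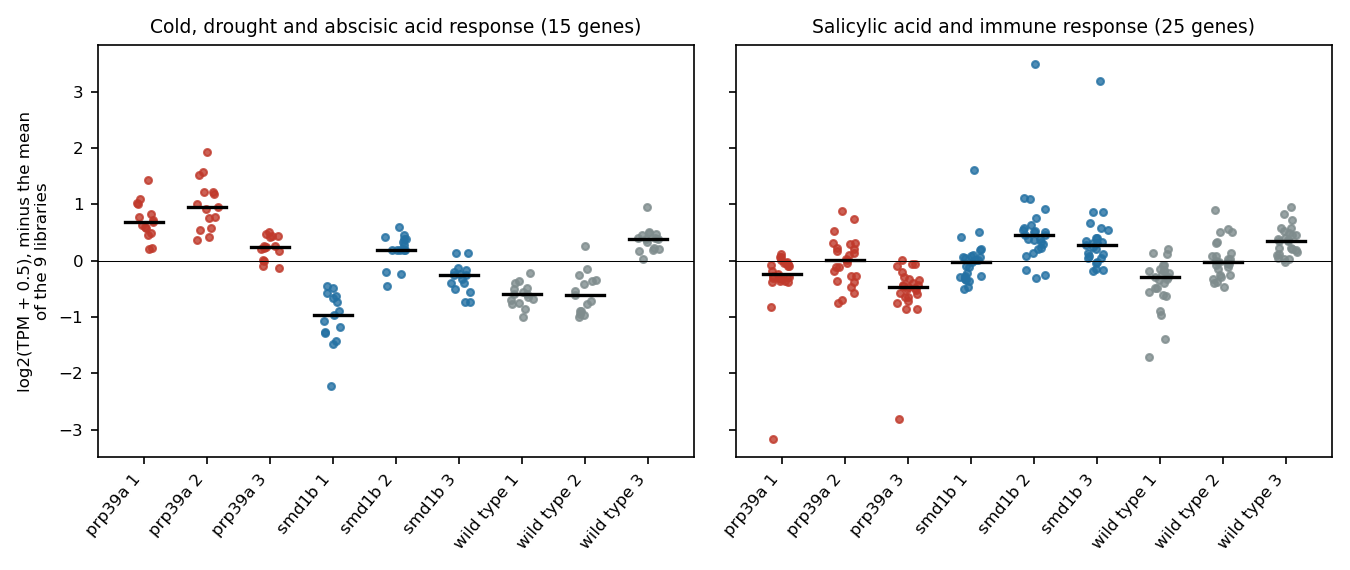
Centred log2(TPM + 0.5) of each gene minus its mean over the 9 libraries, for 15 cold, drought and abscisic acid genes (left) and 25 salicylic acid and immune genes (right), by library; points are genes and bars medians. The cold list's medians are 0.24 to 0.95 in prp39a and −0.96 to 0.19 in smd1b, with a wide spread between replicates, and wild-type replicate 3 lies above wild-type replicates 1 and 2.

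Of 17 photosynthesis genes 2 were higher in prp39a (CAB2 and LHCB2.1) and 1 lower (RBCS1B), beside 10.7% and 9.94% of all genes. RBCS1B, a small subunit of Rubisco, averaged 132 ± 8.07 TPM in prp39a, 272 ± 42.1 TPM in smd1b and 216 TPM in wild type (log2 fold change −0.95, adjusted p = 0.00326). Outside the list, the light-harvesting gene LHB1B1, among the most abundant transcripts, had 7705, 6495 and 6584 TPM in prp39a, against 3705, 4381 and 3736 TPM in smd1b and 4446 TPM in wild type (0.90, adjusted p = 0.00621). CAB2 averaged 5183 TPM in prp39a and 2965 TPM in smd1b (0.89), a call lost without prp39a replicate 1 or 2 or smd1b replicate 1 or 3 (adjusted p 0.0521 to 0.0624). CAB3, also outside the list, averaged 5824 TPM in prp39a and 4170.2 TPM in smd1b (0.57, adjusted p = 0.0346), a call lost without any 1 of the same 4 libraries (0.0980 to 0.111) and with the replicate block (0.0715). CAB2, CAB3 and LHB1B1 have near-identical copies, so the division of reads between them is uncertain. The LHCB2.1 call was lost without any 1 of the same 4 libraries or wild-type replicate 3 (0.0552 to 0.116). Other abundant transcripts called higher were AT2G33830, of the dormancy and auxin associated family, at 4709 TPM in prp39a and 2772 TPM in smd1b (0.85), and AT3G15450, an aluminium-induced protein gene, at 2681 TPM in prp39a and 2133 TPM in smd1b (0.41). The AT2G33830 call was lost without prp39a replicate 2 or smd1b replicate 1 (adjusted p = 0.0502 and 0.0520), and that of AT3G15450 without prp39a replicate 1 or 2 or any smd1b replicate (0.0561 to 0.0979), without centring (0.0573) and with the replicate block (0.0653).

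Aliphatic glucosinolate genes, which make sulphur-rich defence compounds from methionine, had 2 of 8 lower in prp39a and none higher. The shares of all genes were 9.94% lower and 10.7% higher. MYB28, the regulator of the pathway, averaged 14.0 ± 1.01 TPM in prp39a, 28.3 ± 0.945 TPM in smd1b and 25.2 TPM in wild type (log2 fold change −0.90, adjusted p = 0.000389). CYP79F2, an enzyme of its first step, averaged 4.69 TPM in prp39a, 10.7 TPM in smd1b and 9.25 TPM in wild type (−1.02, adjusted p = 0.0146). In both genes prp39a stood apart from wild type. Of 8 anthocyanin genes PAP1 and CHI were lower in prp39a, and the calls were lost without prp39a replicate 1 or smd1b replicate 1 or 2 for PAP1 (adjusted p 0.0617 to 0.0675) and without prp39a replicate 1 or 2 or smd1b replicate 1 or 3 for CHI (0.0716 to 0.1002). Of 6 root markers, the beta-glucosidase PYK10 was lower in prp39a, at 2092 TPM against 2988 TPM in smd1b, a call lost without prp39a replicate 1 or 2, smd1b replicate 1 or 3 or wild-type replicate 1 (0.0514 to 0.115).

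**Figure D5:**
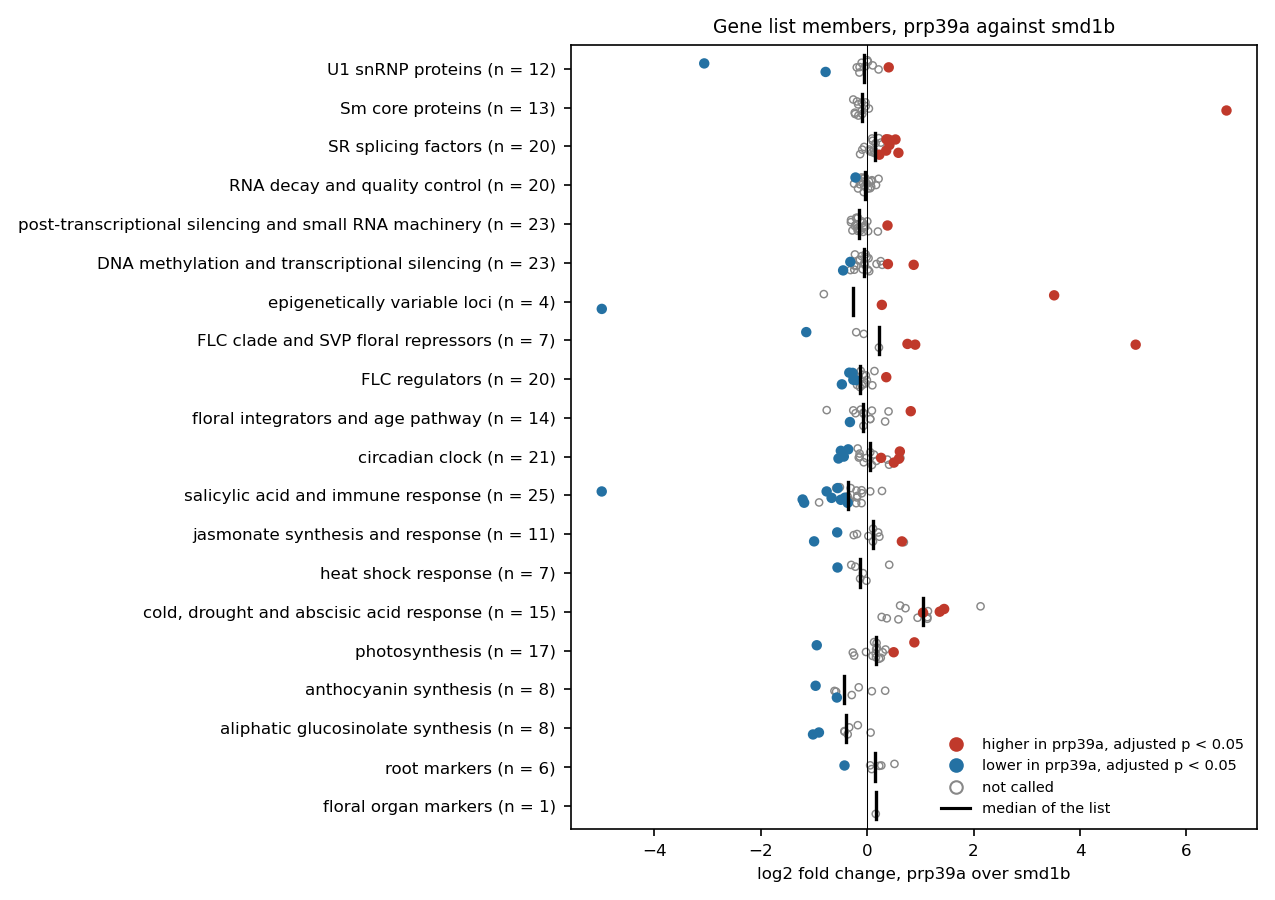
Log2 fold change of prp39a over smd1b for each tested gene of the gene lists, 1 row per list; filled points passed the test (adjusted p under 0.05) and bars are list medians. The cold list's median lies at 1.05, the immune list's at −0.36 and that of the silencing machinery at −0.16.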

How the data were processed

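RNA of 9 libraries was analysed. The deposited values are TPM per transcript isoform, made by the authors; the column names carry the quantifier kallisto, with no version or transcript annotation named. The submitters' processing notes name the build TAIR10 and the tools DESeq2, featureCounts, TopHat2 and Trimmomatic, with no role for any. Every column sums to 1000000 TPM, so depth is unknown, no count test or counting interval was possible, and a value of 0 is called listed at 0. Another 6 columns matched no sample and were not used. The table holds 82190 isoforms of 34212 genes.

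Isoform TPM were summed per gene, and log2(TPM + 0.5) was centred per library by the median log ratio over the tested genes. Isoforms were tested as log2 of (isoform TPM + 0.5) over (other isoforms of the gene + 0.5), called the log2 ratio, in genes of at least 1 TPM; the pseudocount understates changes of low genes. limma 3.58.1 in R 4.3.3 (trend, two-sided, Benjamini-Hochberg at 0.05) was fitted to all 9 libraries without a replicate block, with the contrast prp39a minus smd1b, and was tested on simulated data. Tables were made with Python 3.11.15 and pandas 2.3.3. Exon structures and sequences are from RefSeq, TAIR10.1, and 20369 of the 20585 tested genes are in that annotation.

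Named genes are the mutated genes and paralogs, silent runs (under 5% of the other mutant), outside these runs the 12 largest called changes each way with non-overlapping groups and at least 5 TPM in the higher mutant, up to 5 called members and 3 isoforms per list, the 12 isoforms with the smallest adjusted p, and the called genes among the most abundant. The 20 lists hold 310 genes, of which 275 were tested. The members and lists were chosen with earlier results of these data known.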

Additional observations from a re-analysis of the deposited data

How the results depend on the processing

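No named gene or isoform that was called changed sign under an alternative, but medians of 3 lists near 0 did. The clock median was −0.03 without centring, against 0.06, the jasmonate median −0.08 without smd1b replicate 3, against 0.11, and the root marker median −0.07 without prp39a replicate 3, against 0.16. Without centring, 1316 genes were higher in prp39a and 3020 lower, against 2193 and 2046 with it, and with a filter at 5 TPM 187 genes changed at least 2-fold, against 334, where fewer genes were tested. Leaving out 1 library gave 2244 to 4077 genes called, 1134 to 2074 higher and 1110 to 2003 lower, with 278 to 358 of at least 2-fold. It gave 1911 to 2745 isoforms called, 960 to 1411 of a higher share and 951 to 1347 of a lower share, in 1244 to 1707 genes. Other pseudocounts, size factors, no filter and no trend gave 4124 to 4261 genes, and the 6 mutant libraries alone gave 3043. The deviations of same-numbered prp39a and smd1b libraries from their group means had r of −0.004, 0.287 and 0.003. Differently numbered ones had r from −0.421 to 0.395. These values cannot tell whether the numbers pair the libraries. With the replicate block 3270 genes and 2296 isoforms were called. Of 128 named features, 93 kept their call under every alternative and 35 did not. The cause of these changes was not tested beyond the number of libraries and genes used. The reads behind each TPM are unknown, and the division of reads between similar isoforms and gene copies cannot be checked here.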

Other observations

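Genes that respond to mitochondrial dysfunction were lower in prp39a than in smd1b; the list was put together after its values were seen, so the counts describe it and test nothing. Of 12 tested members 11 were lower in prp39a (9.94% of all genes were) and none higher, with a median log2 fold change of −1.60. AOX1A, the alternative oxidase of the respiratory chain, had 37.1, 37.3 and 41.8 TPM in prp39a, against 66.9, 79.8 and 83.6 TPM in smd1b and 43.9 ± 1.85 TPM in wild type. UPOX, a marker of oxidative stress in mitochondria, had 4.11, 5.36 and 6.77 TPM in prp39a, against 19.5, 21.1 and 26.1 TPM in smd1b and 6.53 TPM in wild type. NAC013, a transcription factor of this response, averaged 7.42 ± 0.943 TPM in prp39a, 20.2 ± 2.59 TPM in smd1b and 7.90 TPM in wild type. The transporter gene AT2G04050, of the MATE family, averaged 5.74 ± 1.98 TPM in prp39a, 37.2 ± 3.94 TPM in smd1b and 4.69 TPM in wild type, and the sulfotransferase SOT12 averaged 24.9 TPM in prp39a, 81.6 TPM in smd1b and 32.5 TPM in wild type. For these 5 genes prp39a was near wild type and smd1b was apart from both. Not every member had this pattern: OM66 averaged 7.32 TPM in prp39a, 15.3 TPM in smd1b and 11.9 TPM in wild type.

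A DNA damage list, also made after values were seen, had 3 of 11 tested members lower in prp39a and none higher, where 9.94% of all genes were lower. NAC044, a transcription factor that acts with SOG1, averaged 1.03 ± 0.129 TPM in prp39a, 5.64 ± 0.672 TPM in smd1b and 0.777 TPM in wild type. GMI1, a gene induced by gamma irradiation, averaged 1.17 ± 0.266 TPM in prp39a, 6.07 ± 0.904 TPM in smd1b and 1.57 TPM in wild type. TSO2, a subunit of ribonucleotide reductase, averaged 20.4 TPM in prp39a, 30.5 TPM in smd1b and 25.3 TPM in wild type. SOG1, the master regulator of the response, averaged 12.4 ± 0.651 TPM in prp39a and 13.0 ± 0.730 TPM in smd1b.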
